A study of Mus musculus with 8 samples.

Results

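The genes described here encode glycoproteins and mucins that sit on the surface of epithelial cells, namely Epcam, Prom1, Cd24a, Ceacam1, Muc1, Muc4, Muc16, Muc20 and Podxl. These 9 genes were chosen by name for their known place on the cell, with earlier results of these data known, and their levels were read by gene symbol in the RNA sequencing of mouse adipose-derived stem cells (ADSCs). Of the 24346 genes listed, 8 belong to this group, and Muc16 is not analysed here. All 8 were above 0 in at least 1 library and were tested among 18862 genes. The study compared conventional 2D cultures with 3D organotypic cultures in Matrigel, a gel of basement membrane proteins. The cells were primary cultures of gonadal adipose tissue from adult male BALB/c mice of WT genotype, and both culture types share this background. The 2D group held 4 libraries, from mice 2, 3, 4 and 5. The 3D group held 4, from mice 1, 4, 5 and 7, and both kinds of culture thus exist for mice 4 and 5. For the 3D medium, the labels do not say which mixture of Wnt3a- and R-Spondin1-conditioned medium the sequenced cultures received.

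Simple epithelia carry a coat of glycoproteins on the surface that faces the lumen. The transmembrane mucins extend from this surface as long rods whose serines and threonines hold dense chains of O-linked sugars, and they lubricate, protect and pass signals into the cell. EpCAM and CEACAM1 join neighbouring cells, CD24 and prominin-1 are found on protrusions and on many progenitor cells, and podocalyxin is a charged sialomucin that keeps membranes apart. The mesothelium that covers gonadal fat carries part of this coat.

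The values are FPKM, fragments scaled to transcript length and to the mapped fragments of the library, which the authors computed. They were quantile normalized here, and FPKM below means this normalized value unless it is called deposited. Depth, for which the step size of low values was used, lay between 15.48 M and 18.5 M fragments per library, and between 15378 and 16134 genes were above 0. The labelled cell type was checked against marker lists. The summed level of 12 stromal genes (among them Col1a1, Pdgfrb, Thy1 and Eng) was between 1679 and 3569 FPKM in 2D and between 4.84 and 8.35 in 3D, where 10 of the 12 were below 1 FPKM in every library. In 3D, therefore, most of the defining stromal markers were nearly absent, although the labels name adipose stem cells. Twist1 remained, at 4.59 to 7.99 FPKM in 3D. The summed level of 10 epithelial genes (among them Cdh1, Krt8 and Cldn3) was between 2110 and 2759 in 3D. In 2D it was 31.8 and 31.6 for mice 2 and 5 but 176 and 694 for mice 3 and 4, where the keratin genes made up nearly all of the sum. Of the 10 genes, 6 were below 1 FPKM in every 2D library, among them Cdh1 (at most 0.716) and Cldn3 (at most 0.189). The same 2D libraries of mice 3 and 4 stood apart in 10 mesothelial genes, whose summed level was 889 and 2300 (mice 3 and 4) against 29.2 and 29.7 (mice 2 and 5), and between 91.2 and 199.98 in 3D. Krt19, which is on the epithelial list too, made up 88.5 to 194 FPKM of the mesothelial sum in 3D, where 7 of the 10 genes were below 1 FPKM in every library. Endothelial, macrophage and epididymal lists summed to at most 6.42, 42.3 and 4.31 FPKM in any library. Since the libraries are of whole cultures, fewer cells of a type and less RNA per cell cannot be told apart.

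Of the 8 genes tested, 5 were higher in 3D (Epcam, Prom1, Cd24a, Muc1 and Muc20), 0 were lower, and 3 (Ceacam1, Muc4 and Podxl) did not pass, by limma's moderated test at a threshold of 0.05 on the p adjusted over all genes (Benjamini-Hochberg). Over all genes tested, 21.2% were called higher and 20.3% lower by the same rule, 41.5% in all. In 6 of the 8 genes the lowest 3D value exceeded the highest 2D value, which held for 21.6% of all genes, while the reverse held for 20.9%, 42.5% in all. The median log2 change of the 8 genes was 2.72, and that of all genes tested was 0.0012. With the mouse entered as a block, a fit that rests on mice 4 and 5 and leaves 1 residual degree of freedom passed 0 of the 8, with adjusted p-values of limma between 0.111 and 0.158 for the 5 genes, and 6 had an unadjusted p below 0.05. That fit called 0 of all genes as well. Of the 18862 genes, 2833 higher and 2383 lower in 3D had an unadjusted p below 0.05 in the same limma fit.

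**Figure D1:**
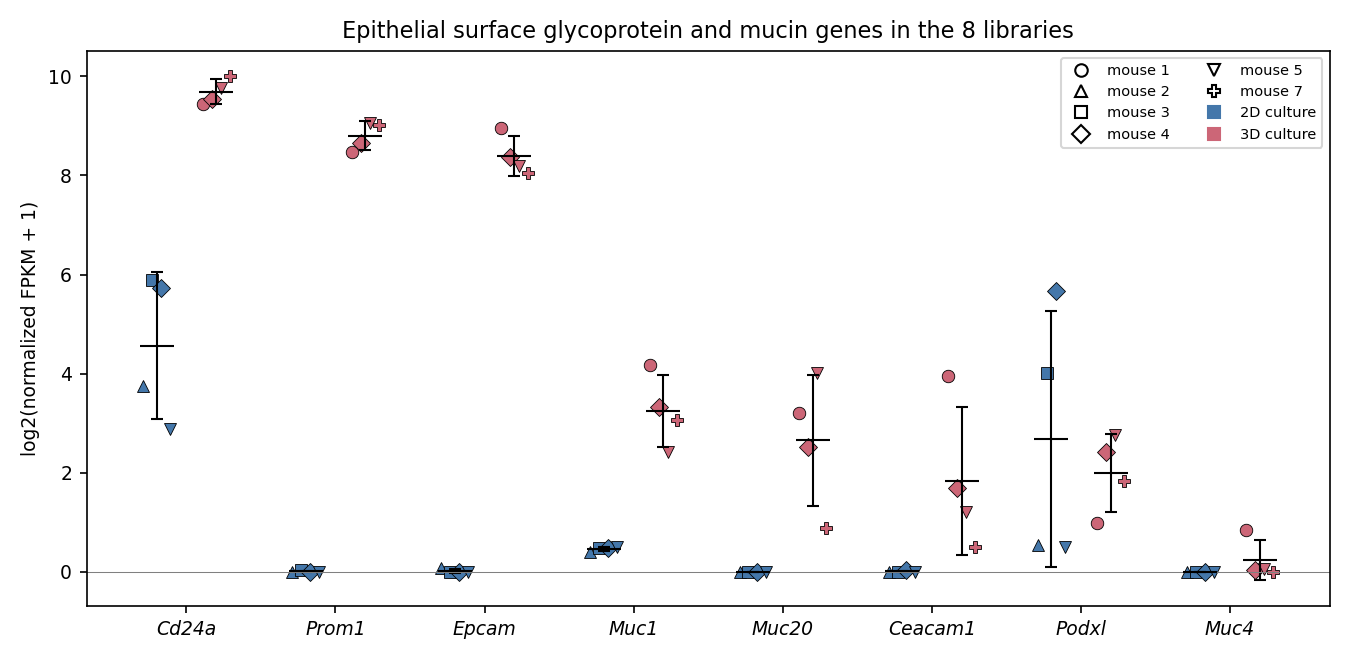
Level of 8 genes in each library, as log2(FPKM + 1), with blue symbols for 2D and red symbols for 3D cultures and 1 symbol shape per mouse; horizontal bars are means and whiskers are SD over 4 libraries on that scale. Cd24a, Prom1 and Epcam stand above the other genes in 3D, and Podxl is highest in the 2D libraries of mice 3 and 4.

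Promoter sequences are shown for the 4 genes called higher in 3D for which a promoter window was found. They are also the tested genes that held the motif marked below. Cd24a, also called higher in 3D, and Podxl had no window. Promoter windows of 250 bases before to 50 bases after the annotated start (RefSeq, GRCm38.p6) were found for 7 of the 9 genes and for 6 of the 8 tested. Each is written 5′ to 3′ on the strand of the gene, and capitals mark the E-box CACCTG on either strand, a motif that the ZEB and SNAI repressors of epithelial genes are known to bind. The first is Epcam (chr17:87635729-87636028, plus strand), followed by Prom1 (chr5:44101687-44101986, minus strand), Muc1 (chr3:89228806-89229105, plus strand) and Muc20 (chr16:32797386-32797685, minus strand).
Epcam: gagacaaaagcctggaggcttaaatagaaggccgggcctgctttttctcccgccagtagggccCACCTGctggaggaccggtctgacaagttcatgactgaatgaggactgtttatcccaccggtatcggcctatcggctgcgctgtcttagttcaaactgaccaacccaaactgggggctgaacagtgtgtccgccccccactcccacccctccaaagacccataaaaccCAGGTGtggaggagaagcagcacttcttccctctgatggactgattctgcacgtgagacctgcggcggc
Prom1: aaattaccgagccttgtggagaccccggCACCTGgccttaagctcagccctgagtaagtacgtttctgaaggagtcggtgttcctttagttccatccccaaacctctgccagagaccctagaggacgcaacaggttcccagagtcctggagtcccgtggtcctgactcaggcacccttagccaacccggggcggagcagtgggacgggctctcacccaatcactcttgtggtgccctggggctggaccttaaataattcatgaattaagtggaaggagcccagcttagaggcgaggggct
Muc1: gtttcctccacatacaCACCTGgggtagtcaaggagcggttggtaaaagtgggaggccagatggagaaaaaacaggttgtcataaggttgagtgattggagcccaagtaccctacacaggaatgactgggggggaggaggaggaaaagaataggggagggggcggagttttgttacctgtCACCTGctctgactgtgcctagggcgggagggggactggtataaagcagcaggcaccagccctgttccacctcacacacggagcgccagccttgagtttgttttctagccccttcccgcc
Muc20: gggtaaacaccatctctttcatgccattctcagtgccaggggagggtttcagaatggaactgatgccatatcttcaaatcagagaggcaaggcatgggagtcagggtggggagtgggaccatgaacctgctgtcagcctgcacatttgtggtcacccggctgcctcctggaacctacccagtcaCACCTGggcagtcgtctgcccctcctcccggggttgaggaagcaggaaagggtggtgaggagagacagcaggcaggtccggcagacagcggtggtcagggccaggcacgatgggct

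The motif occurred in 4 of the 6 tested genes with a promoter in the table. Counted from the start, Epcam held it at positions -187 and -19, Muc1 at -234 and -70, Prom1 at -222 in the window shown and Muc20 at -66. It was not found in the windows of Ceacam1 and Muc4, nor at a further annotated start of Prom1. Of all 32851 promoter windows of this length, 20.2% held the motif on either strand, a share per window and not per gene. The grainyhead-like motifs AACCGGTT and AACCNGGTT were found in 0 of the 6 and in 0.146% and 0.271% of all windows. Zeb1, one of the factors known for this E-box, was between 11.9 and 23.0 FPKM in 2D and at most 0.0807 in 3D. Zeb2 was between 17.6 and 21.2 in 2D and at most 0.0326 in 3D. Levels of the SNAI genes are not given here. A match of letters is a description, and binding was not measured. Whether Zeb1 or Zeb2 bears on the levels of these genes was not tested.

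Epcam encodes the epithelial cell adhesion molecule, a homophilic adhesion protein of simple epithelia, and lies on chromosome 17 (17:87635979-87651129, plus strand, GRCm38). It was at 0.0504 FPKM in 2D for mouse 2 and listed at 0 in the other 2D libraries. In 3D it was at 494, 331, 290.5 and 265 FPKM for mice 1, 4, 5 and 7. The groups were thus far apart, and the 3D library of mouse 1 was the highest. The mean in 3D was 345 ± 103 (SD, n = 4), and the log2 change on the log2(FPKM + 1) scale was 8.37 (standard error 0.19, adjusted p by limma = 1.1e-07). Every 2D library lay at or under the level of 3 fragments, so that the deposited FPKM was at least 2470.5-fold higher in 3D than that floor of 2D. These are RNA levels, as are those of the other genes, and protein on the cell surface was not measured here. For the organotypic cultures, the paper describes higher EpCAM mRNA by PCR but lower EpCAM protein by blot. The reason for this difference between RNA and protein was not tested.

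Prom1 encodes prominin-1 (CD133), a cholesterol-binding protein that spans the membrane of microvilli and other protrusions, and lies on chromosome 5 (5:43993620-44102032, minus strand). It was at 0.0242 FPKM in 2D for mouse 3 and listed at 0 in those of mice 2, 4 and 5. In 3D the values were 355, 399, 535 and 520.4 for mice 1, 4, 5 and 7. All 3D libraries were high, that of mouse 1 least. The mean in 3D was 452 ± 88.9 (SD, n = 4), with a log2 change of 8.79 (standard error 0.14, adjusted p by limma = 2.4e-08), and the deposited level was at least 4785-fold above the floor of 3 fragments in 2D.

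Cd24a encodes the heat-stable antigen, a short protein on a lipid anchor that is nearly covered by sugars, and lies on chromosome 10 (10:43578284-43584265, plus strand). It differed from Epcam and Prom1 in being well above 0 in 2D, at 12.5, 58.0, 52.4 and 6.36 FPKM for mice 2, 3, 4 and 5. In 3D it was at 694, 745, 872 and 1027 for mice 1, 4, 5 and 7. The groups did not overlap, and within 2D the libraries of mice 3 and 4, which were also high in mesothelial genes, lay above those of mice 2 and 5. The mean rose from 32.3 ± 26.6 to 834 ± 149 (SD, n = 4 each), a ratio of 25.8, with a log2 change of 5.13 (standard error 0.67, adjusted p by limma = 0.00068). Within mouse 4 the log2 difference was 3.80 and within mouse 5 it was 6.89. Retroposed copies of this gene exist in the mouse genome, and the counting of reads that match several places is not given in the sources used here.

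Ceacam1 encodes an adhesion receptor of the immunoglobulin family that also passes inhibitory signals, and lies on chromosome 7 (7:25461707-25477603, minus strand). It was at 0.0251 FPKM in 2D for mouse 4 and listed at 0 in the other 2D libraries. In 3D it was at 14.5, 2.23, 1.30 and 0.412 for mice 1, 4, 5 and 7. All 3D libraries lay above all 2D libraries, but the library of mouse 1 was far above the rest. The log2 change of 1.83 (standard error 0.66) did not pass, since limma gave an adjusted p of 0.0603 (from 0.00461 to 0.18 over the alternatives). Without the 3D library of mouse 1 the change was 1.08 and the adjusted p was 0.0136. The bound on the fold was at least 20.6 with this library and at least 6.42 without it. Ceacam2, a close relative whose reads could be shared with Ceacam1, was at most 0.104 FPKM in any library.

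Muc1 encodes a transmembrane mucin found on most simple epithelia, and lies on chromosome 3 (3:89229057-89233381, plus strand). In 2D it was at 0.315, 0.397, 0.389 and 0.411 FPKM for mice 2, 3, 4 and 5. In 3D it was at 17.1, 8.98, 4.34 and 7.42 for mice 1, 4, 5 and 7. The 2D libraries hardly differed among themselves, and each 3D library was above them, highest in mouse 1. The mean rose from 0.378 ± 0.0427 to 9.47 ± 5.47 (SD, n = 4 each), a ratio of 25.0, with a log2 change of 2.79 (standard error 0.34, adjusted p by limma = 0.00051). The 2D values rest on an estimated 6.96 to 14.8 fragments per library.

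Muc20 encodes another transmembrane mucin, known to bind the receptor MET, and lies on chromosome 16 (16:32777419-32797435, minus strand). Its listed value was 0 throughout 2D. It was at 8.24, 4.73, 15.1 and 0.851 FPKM in 3D for mice 1, 4, 5 and 7. The groups did not overlap, and mouse 5 was the highest and mouse 7 the lowest of 3D. The log2 change was 2.66 (standard error 0.59, adjusted p by limma = 0.00882), and the adjusted p was 0.0514 without the 2D libraries of mice 3 and 4. The deposited level was at least 88.9-fold above the floor of 3 fragments in 2D, and at least 58.9-fold above it without the 3D library of mouse 5.

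Muc4, a very long transmembrane mucin that is known as a partner of ERBB2, lies on the opposite strand (16:32735886-32782391, plus strand). Its listed value was 0 throughout 2D and for mouse 7 in 3D. It was at 0.796, 0.0300 and 0.0375 FPKM in 3D for mice 1, 4 and 5. The cultures thus overlapped, and only the library of mouse 1 lay far above the others, on an estimated 194 fragments against 6.04 each for mice 4 and 5. The log2 change was 0.24 (standard error 0.18, adjusted p by limma = 0.341). The bound on the fold, 19.4, fell to 1.46 without the 3D library of mouse 1. Muc4 and Muc20 overlap at their 3′ ends by 4973 bases (16:32777419-32782391), and the libraries were directional, but whether the counting used the strand is not given in the sources used here.

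Podxl encodes podocalyxin, a sialomucin of the CD34 family on podocytes, endothelium and mesothelium, and lies on chromosome 6 (6:31519488-31563981, minus strand). It was at 0.457, 15.1, 50.1 and 0.417 FPKM in 2D for mice 2, 3, 4 and 5. In 3D it was at 0.970, 4.32, 5.81 and 2.55 for mice 1, 4, 5 and 7. The 3D libraries lay between the low and the high 2D libraries, and the log2 change was -0.69 (standard error 1.20, adjusted p by limma = 0.667). Within mouse 4, Podxl was at 50.1 in 2D and 4.32 in 3D, and within mouse 5 it was at 0.417 and 5.81, so that these mice moved in opposite directions. Without the 2D library of mouse 4 the change became 0.32 (adjusted p = 0.803), and without those of mice 3 and 4 it became 1.49 (adjusted p = 0.0648).

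The 2D libraries in which Podxl was high were those that were high in mesothelial genes. Of the 10 mesothelial genes, 9 were higher in the 2D libraries of both mice 3 and 4 than in those of mice 2 and 5. Msln, which encodes mesothelin, the known ligand of MUC16, was at 253 and 728 FPKM in mice 3 and 4 and at 0.388 and 0.286 in mice 2 and 5. In 3D Msln was at 0.506, 33.6, 5.62 and 5.98 for mice 1, 4, 5 and 7. The transcription factor gene Wt1 was at 52.6 and 72.5 against 0.155 and 0.0659 in 2D, and between 0 and 0.998 in 3D. Upk3b, another mesothelial gene, was at 192 and 482 against 0 and 0, and at most 0.104 in 3D. Of the endothelial list, Kdr was at 0.188, 3.92, 6.34 and 0.155 in 2D for mice 2, 3, 4 and 5, higher in the same libraries, and at most 0.0160 in 3D. Kdr was the only 1 of the 5 endothelial genes with this order. Emcn went the other way, at 0.381, 0.105, 0.0736 and 0.661 in 2D for mice 2, 3, 4 and 5. Pecam1 was at most 0.158 and Cdh5 at most 0.164 FPKM in any library. The part of mesothelial transcripts in the 2D levels of Podxl and Cd24a was not tested.

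Of the genes for proteins that tie podocalyxin to the actin cortex, Ezr and Slc9a3r1 showed the same libraries apart, and Msn, Rdx and Slc9a3r2 did not to this extent. Ezr, which encodes ezrin, was at 7.25, 361, 572 and 4.62 FPKM in 2D for mice 2, 3, 4 and 5 and between 207 and 284 in 3D. Slc9a3r1, which encodes the scaffold NHERF1, was at 12.7, 250.3, 282 and 11.0 in the same 2D libraries and between 106 and 154 in 3D. For both genes the 3D libraries lay between the low and the high 2D libraries, and neither passed (adjusted p by limma = 0.323 for Ezr and 0.480 for Slc9a3r1). Msn, which encodes the related moesin, was lower in 3D, at 415 ± 74.3 FPKM in 2D and 63.4 ± 33.8 in 3D (SD, n = 4 each, log2 change -2.88, adjusted p by limma = 0.00157).

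**Figure D2:**
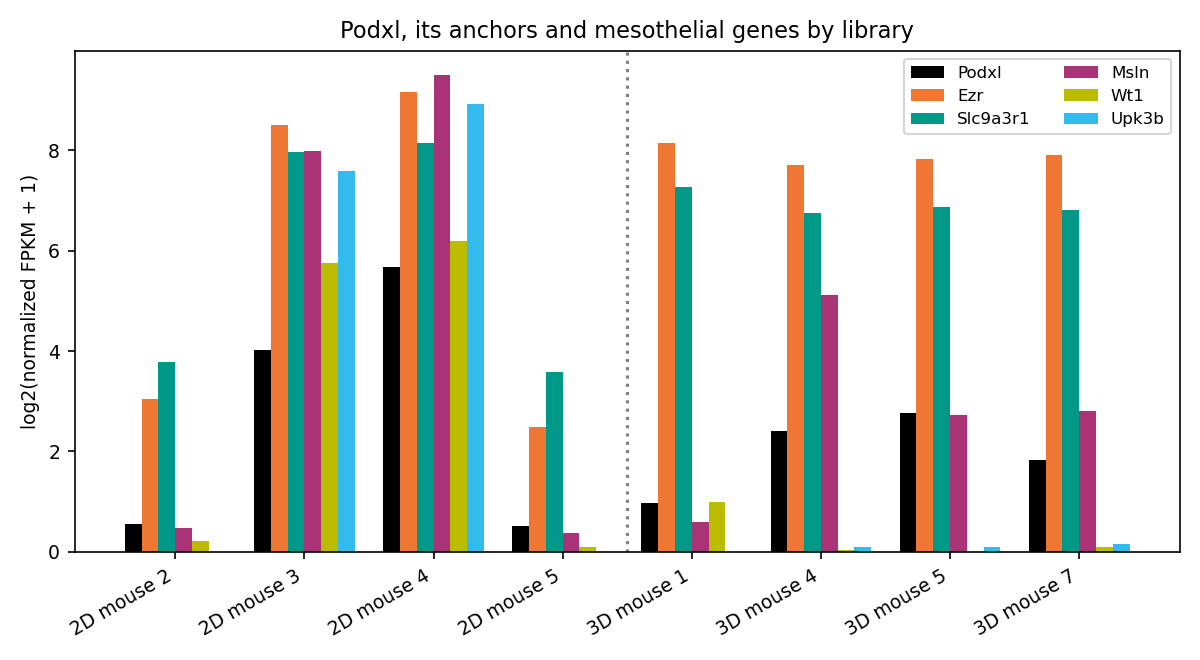
Podxl, its anchors Ezr and Slc9a3r1, and the mesothelial genes Msln, Wt1 and Upk3b in each library; bars start at 0 and give log2(FPKM + 1), with 2D libraries left and 3D libraries right of the dotted line. In 2D the 6 genes are high for mice 3 and 4 and low for mice 2 and 5, while in 3D Ezr and Slc9a3r1 are high in all libraries.

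FPKM values are per length, so levels can be set in order between genes. In 3D the order by mean was Cd24a, Prom1, Epcam, Muc1, Muc20, Ceacam1, Podxl and Muc4. The ranges of the 4 libraries overlapped between Prom1 and Epcam, and between each neighbouring pair from Muc1 to Podxl. Differences between these neighbours within a library were not tested. The ranges were separate between Cd24a and Prom1, between Epcam and Muc1, and between Podxl and Muc4. In 2D the order began with Cd24a and Podxl, whose ranges overlapped, followed by Muc1 and by 5 genes at or under 3 fragments in every library. The 8 genes summed to 13.3, 73.6, 103 and 7.19 FPKM in 2D for mice 2, 3, 4 and 5, and to between 1495 and 1824 in 3D, of which Cd24a made up between 43.8% and 56.3%.

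The 3D libraries differed among themselves in a way that was not shared by all genes. The library of mouse 1 was the highest of 3D for 4 genes (Epcam, Muc1, Ceacam1 and Muc4) and the lowest for 3 (Cd24a, Prom1 and Podxl). Genes under 300 nt held 63.2% of the deposited FPKM of this library, against 19.5% to 40.6% in the other libraries. Its estimated depth, 15.48 M fragments, was the lowest. With genes under 300 nt left out, 5 of the 8 genes were higher in 3D. The part of this in the levels of mouse 1 was not tested. Muc15, a mucin outside the group, was at 26.5 FPKM in the 3D library of mouse 1, where the other 3D cultures had 1.49 to 2.14. With 4 libraries no relation between genes was tested within 3D.

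The genes with the most similar levels over the 8 libraries, by Euclidean distance on log2(FPKM + 1), were sought for each of the 7 genes whose mean reached 1 FPKM in a culture type. For Epcam they were Cldn4 (distance 1.36) and Cdh1 (1.41), a claudin of tight junctions and the gene of E-cadherin. For Prom1 they were Wfdc2 (1.16) and again Cdh1 (1.22). For Cd24a the nearest, Itga3 and Gstm1, lay farther off, at 3.11 and 3.20, on a distance that counts differences of level as well as of pattern. Itga3 was at 6.30, 54.4, 50.2 and 2.35 FPKM in 2D for mice 2, 3, 4 and 5, in the order of Cd24a. In 3D it was between 285 and 357, below Cd24a. For Muc1 they were Tbc1d4 (0.799) and Plekhg6 (0.989), for Muc20 Bst1 (1.00) and Bik (1.15), and for Ceacam1 Cfi (0.777) and Calml3 (0.857). For Podxl they were Scel (1.08) and Frmd4b (2.25). Scel, which encodes sciellin, was at 0.0347, 14.6, 39.1 and 0.0366 FPKM in 2D for mice 2, 3, 4 and 5, in step with Podxl, and between 0.995 and 4.85 in 3D.

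Among the relatives of these genes, 1 of 11 tested was higher in 3D, 1 was lower and 9 did not pass (median log2 change 0.055). These are shares of 9.09% each, against 21.2% higher and 20.3% lower of all genes. Prom2, the other prominin, was at 0 throughout 2D and at 7.45, 4.76, 0.940 and 2.16 in 3D (log2 change 2.05, adjusted p by limma = 0.00592). Podxl2, which encodes endoglycan of the CD34 family, was lower in 3D, at 4.04 ± 1.34 in 2D and 0.640 ± 0.696 in 3D (SD, n = 4 each, log2 change -1.67, adjusted p by limma = 0.00323). Cd34 itself overlapped between the cultures, from 0.122 to 5.62 in 2D and from 0.159 to 2.10 in 3D. Of the other Ceacam genes, 8 were tested, 0 passed by limma's test, and the highest level in any library was 4.15 FPKM, for Ceacam10. An unadjusted p below 0.05 by limma was found for 3 of the 11 relatives, and for 9259 of all 18862 genes tested.

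Of the other genes named as mucins, 17 in the list, 11 were in the files, Muc5ac was at 0 in every library, and 10 were tested. Cd164, which encodes endolyn, was higher in 3D (91.0 ± 3.99 in 2D and 126 ± 14.5 in 3D, SD, n = 4 each, log2 change 0.46, adjusted p by limma = 0.00457). The sign of this change turned to -0.12 without quantile normalization and to -0.061 with upper quartile scaling. Mcam (CD146), an adhesion molecule of vessel wall and stromal cells, was lower (30.1 ± 24.5 in 2D and 4.66 ± 1.27 in 3D, log2 change -2.14, adjusted p by limma = 0.0149). The other 8 did not pass, and the secreted gel-forming mucins Muc2, Muc5b, Muc6 and Muc19 were at most 0.475 FPKM in any library. The median log2 change of the 10 was -0.011. Of the 10, 10% were higher and 10% lower, against 21.2% and 20.3% of all genes.

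**Figure D3:**
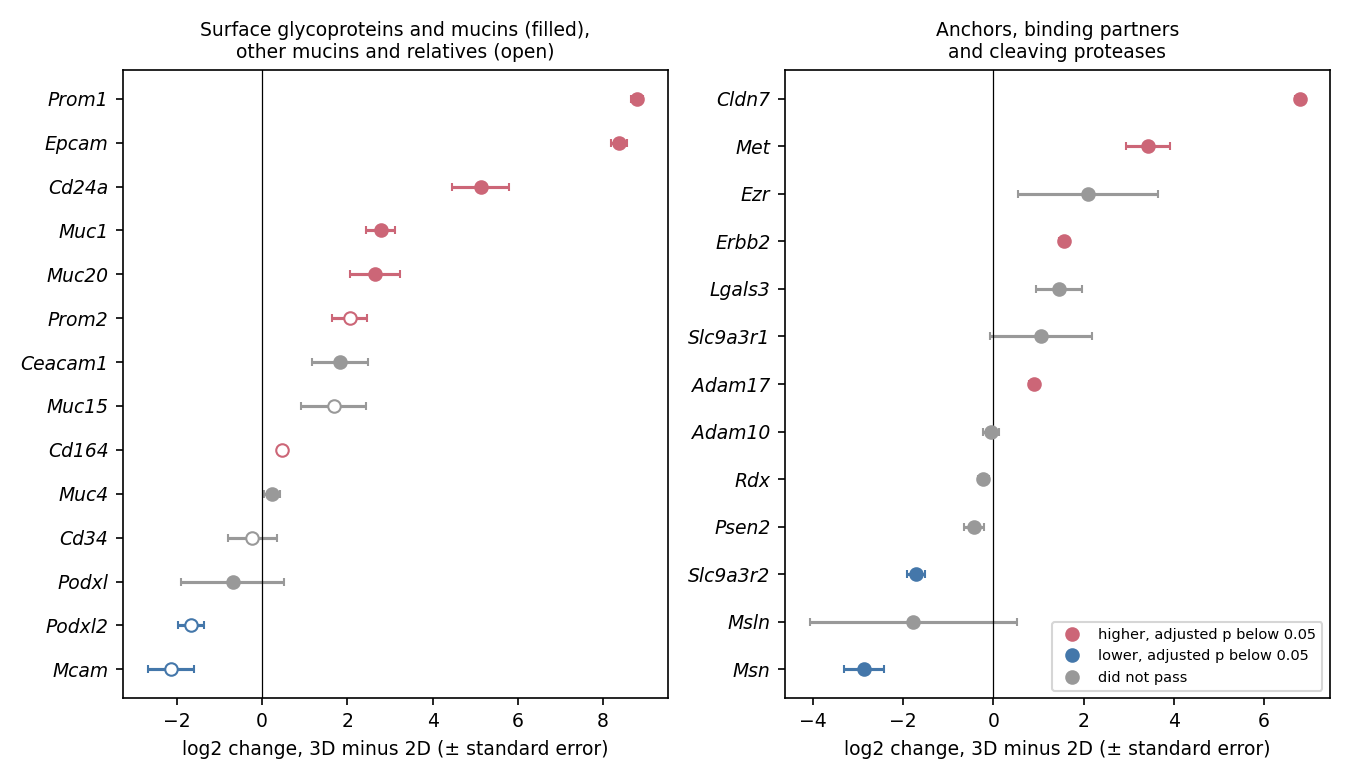
Log2 change (3D minus 2D, on log2(FPKM + 1)) with its standard error; the left panel holds the 8 genes as filled points and 6 other mucins and relatives with a mean of at least 1 FPKM as open points, and the right panel 13 anchors, partners and cleaving proteases. Red marks higher and blue lower in 3D at an adjusted p below 0.05, and grey did not pass. Prom1 and Epcam lie farthest to the right on the left panel and Cldn7 on the right panel.

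Proteins that bind or cleave these glycoproteins formed a list of 13 genes, of which 4 were higher in 3D, 2 were lower and 7 did not pass (median log2 change 0.89). These are shares of 30.8% and 15.4%, against 21.2% and 20.3% of all genes. Cldn7, a claudin that forms a complex with EpCAM, was between 0 and 0.234 FPKM in 2D and reached 119.9 ± 10.9 in 3D (SD, n = 4) (log2 change 6.80, adjusted p by limma = 2.7e-08). Met, the receptor that MUC20 binds, rose from 12.4 ± 8.12 to 133 ± 54.0 (log2 change 3.44, adjusted p by limma = 0.00104). Erbb2, the receptor that MUC4 binds, rose from 6.49 ± 0.577 to 21.2 ± 2.53 (log2 change 1.56, adjusted p by limma = 3.7e-05). Adam17, a protease that sheds surface proteins, rose from 14.8 ± 1.73 to 28.4 ± 2.49 (log2 change 0.89). The genes that fell were Msn and the scaffold gene Slc9a3r2 (log2 change -1.71). Lgals3, which encodes a galectin that binds mucin sugars, was between 24.7 and 58.3 in 2D and at 32.1, 135, 133 and 140.2 in 3D for mice 1, 4, 5 and 7, with a limma adjusted p of 0.0529.

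The sugar chains of mucins are started by GalNAc transferases and then extended and capped by other enzymes. Of 31 such genes tested, 6 were higher in 3D, 9 were lower and 16 did not pass (median log2 change 0.020). Among the 17 GalNAc transferases tested, 2 were higher and 7 lower. Galnt3 was between 0 and 0.230 FPKM in 2D and at 33.6, 25.1, 25.4 and 16.8 in 3D for mice 1, 4, 5 and 7 (log2 change 4.57, standard error 0.21, adjusted p by limma = 3.9e-06). Galnt12 rose from 1.90 ± 0.598 to 5.22 ± 0.852 (SD, n = 4 each). Galnt18 fell from 60.3 ± 17.4 to 8.12 ± 1.83 and Galnt10 from 27.8 ± 10.4 to 6.75 ± 0.712 (SD, n = 4 each). Galnt16 was between 0.151 and 3.95 in 2D and between 0 and 0.0348 in 3D (log2 change -1.32, adjusted p by limma = 0.0466), and its adjusted p was above the threshold in 9 of 18 alternatives. Galnt2 did not pass (54.4 ± 3.90 in 2D and 53.8 ± 10.4 in 3D).

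Among the 14 enzymes that extend or cap the chain, 4 were higher and 2 lower in 3D. C1galt1, which makes the core 1 chain, rose from 14.6 ± 3.22 to 34.9 ± 3.51 (SD, n = 4 each, log2 change 1.22, adjusted p by limma = 0.00062), while its chaperone C1galt1c1 did not pass. St6galnac2, a sialyltransferase, was between 0.478 and 0.933 FPKM in 2D and at 40.9, 8.71, 10.6 and 40.4 in 3D for mice 1, 4, 5 and 7 (log2 change 3.63, adjusted p by limma = 0.00115). The sialyltransferases St3gal2 and St6galnac4 were lower instead, with log2 changes of -3.07 and -2.90 (standard errors 0.22 and 0.29). Fut2, a fucosyltransferase of secretory epithelia, was at most 0.0655 in 2D and at 8.43, 2.72, 0.632 and 0.576 in 3D for mice 1, 4, 5 and 7 (log2 change 1.60, adjusted p by limma = 0.0472), and lost its call in 9 of 18 alternatives. Its deposited level was at least 52.6-fold above the floor of 3 fragments in 2D, and at least 22.9-fold without the 3D library of mouse 1. Gcnt1, a core 2 enzyme, passed with overlapping libraries, from 0.969 to 16.8 in 2D and from 7.41 to 58.1 in 3D. The enzymes thus changed in both directions. Of the 31, 19.4% were higher and 29.0% lower, against 21.2% and 20.3% of all genes, and of the 17 GalNAc transferases 41.2% were lower.

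**Figure D4:**
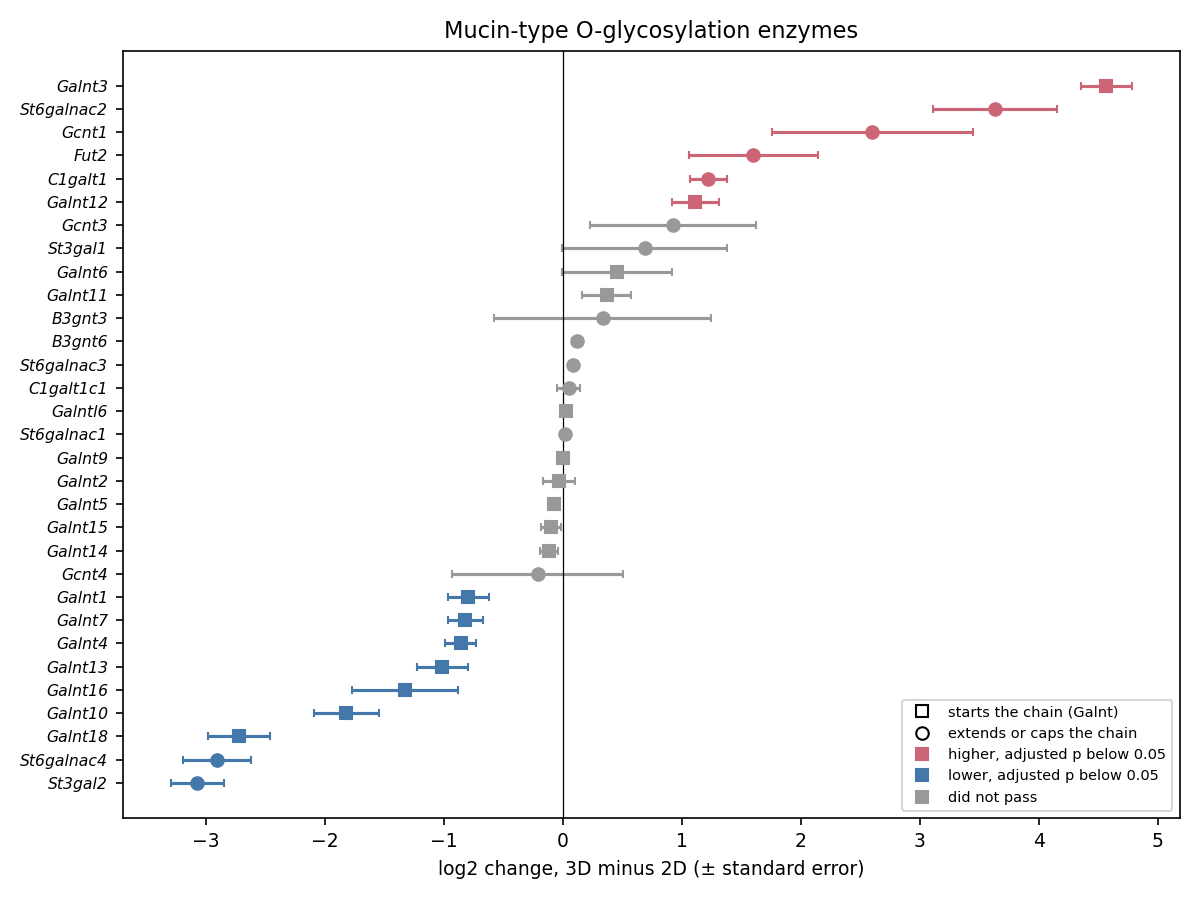
Log2 change (3D minus 2D, on log2(FPKM + 1)) with its standard error for 31 enzymes of mucin-type O-glycosylation; squares start the sugar chain and circles extend or cap it. Red marks higher and blue lower in 3D at an adjusted p below 0.05, and grey did not pass; Galnt3 and St6galnac2 lie highest and St3gal2 and St6galnac4 lowest.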

How the data were processed

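Total RNA of 8 cultures was depleted of rRNA and sequenced with a directional kit. Per the labels and the study's methods, the authors mapped trimmed reads with TopHat to mm10 and estimated FPKM with Cufflinks; the deposited FPKM values were not yet quantile normalized. The annotation they counted on is not given in the sources used here. From these values, genes above 0 in at least 1 library (18862 of 24346) were quantile normalized, and log2(FPKM + 1) was tested with limma 3.58.1 in R 4.3.3 (moderated test with an intensity trend, two-sided, Benjamini-Hochberg over all genes, threshold 0.05). A fold change on this scale understates the change of low genes.

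The members and lists were chosen with earlier results of these data known. Named by rule were all members, from each list up to 5 genes with the largest rise and 5 with the largest fall among called genes whose libraries did not overlap, the 2 genes nearest to each member by Euclidean distance, and cell type markers. Other genes of the lists (Ezr, Slc9a3r1, Rdx, Lgals3, Cd34, Gcnt1, Galnt2, C1galt1c1, Muc15, the gel-forming mucins and Ceacam2 and Ceacam10) were named after their values were seen. Coordinates come from GENCODE release 21 for mouse (GRCm38), which matched 23310 symbols (95.7%). Depth was estimated from 875 single-transcript genes of at least 3000 nt, with a fragment length of 250 nt chosen by the sharpness of the steps; between 72.2% and 84.9% of low values lay within 0.15 fragments of a whole number. Floors cover counting error only.

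Mice 4 and 5 gave both cultures, so that the mouse number pairs these libraries; deviations of the paired libraries correlated at -0.053 and -0.113 over 12583 genes. Whether the cultures of a mouse were separate isolations is not stated. Other scalings, pseudocounts, filters and left-out libraries were tried. The script was tested on simulated data. A relative gene and a partner gene were taken out of the lists and are not reported here. The authors' unit gives no counts, so no count model was fitted.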

Additional observations from a re-analysis of the deposited data

Results flagged for a closer look

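For 55 genes whose levels are described, 14 of 105 groups of 4 libraries held a library far from the others by Dixon's criterion on the log2 scale, and 5 further groups were at 0 throughout. Chance meets the criterion in about 1 in 20 groups of continuous values, a rate that does not apply where the other libraries are at 0, as in 6 of the 14. Epcam was at 0.0504 normalized FPKM in mouse 2, Ceacam1 at 0.0251 in mouse 4 and Prom1 at 0.0242 in mouse 3, each with the other 2D libraries at 0. The same held for Muc19 at 0.0215 in mouse 2 and Cldn3 at 0.189 in mouse 4. The values of Epcam, Ceacam1 and Prom1 rest on an estimated 0.821, 0.510 and 0.968 fragments. Fut2 in 2D was at 0.0655 for mouse 2, with the others from 0 to 0.00495, and Ceacam2 was at 0.0332 for that mouse, with the others from 0 to 0.00450. For both genes every 2D library lay at or under 3 fragments, where that rate does not apply either. Krt19 in 2D was at 109 for mouse 4, with the others from 25.5 to 31.6. In 3D, Muc4 was at 0.796 in mouse 1 and between 0 and 0.0375 in the others. Of the 14, 4 were in this library: Muc4, Muc15 (26.5 against 1.49 to 2.14), Wt1 (0.998 against 0 to 0.0666) and, at the low end, Lgals3 (32.1 against 133 to 140.2). Galnt16 was at 0.0348 in the 3D library of mouse 7 and at 0 in the others. Slc9a3r2 was at 2.97 for mouse 4 in 3D, where the others had 3.81 to 4.00.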

How the results depend on the processing

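With the mouse as a replicate block, the count of called genes was 0 in every list, in both directions, and 0 over all genes. That fit has 1 residual degree of freedom. With the libraries of mice 4 and 5 alone and no block, 1788 genes were higher and 1432 lower, 0 of the relatives were higher, 3 O-glycosylation genes were lower, and 0 other mucins were called in either direction. Other mucins called higher numbered 0 as deposited, 0 with upper quartile scaling and 2 with a pseudocount of 0.1. Those called lower numbered 2 in each of these 3 settings and 2 without the 2D libraries of mice 3 and 4, a setting chosen after seeing the data.

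Of the 8 glycoprotein genes, 4 were called higher without the 2D libraries of mice 3 and 4. The count was 6 as deposited, with upper quartile scaling, with a pseudocount of 0.1 and with mice 4 and 5 alone. It was also 6, of 7 tested, where a mean of at least 1 FPKM was required. Leaving out 1 library at a time, 5 to 6 of the 8 glycoprotein genes were higher and 0 lower. The ranges were 1 to 2 higher and 1 to 2 lower for other mucins, 1 to 2 and 1 for relatives, 4 to 7 and 8 to 10 for O-glycosylation genes, 4 to 5 and 2 for partners, 8 to 11 and 12 to 15 for cell type markers, and 3393 to 4051 and 3204 to 3835 for all genes. Podxl ranged from -1.38 to 0.32 with 1 library left out. It turned from -0.69 to 0.32 without the 2D library of mouse 4 and to 1.49 without those of mice 3 and 4. Cd164 turned from 0.46 to -0.12 as deposited and to -0.061 with upper quartile scaling. The cause was not tested. Muc4 has no value where a mean of at least 1 FPKM was required. Genes at or under 3 fragments in 2D carry only a lower bound of their fold.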
